A study of Chlamydomonas reinhardtii with 15 samples.

Results

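In the green alga Chlamydomonas reinhardtii, 149 transcript models gave a red over green log2 ratio of at least 1, that is a signal at least 2-fold higher in the starved sample, on each of 11 arrays of sulfur-starved cultures. They were selected on exactly these ratios, so their height on the 11 arrays is a description and was not tested. They were taken from 7654 models with a value on all 11 arrays, among 14381 models with a value on any array of the series. The rule held for 158 models, a share of 2.06%, and 9 known sulfur and light stress genes were left out (ARS1, SLT1, SLT2, ECP76, ECP88, SIR1, SUOX1, LHCBM9 and a model named LHCSR1 or LHCSR2).

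The series held 15 arrays with 2 colours, each setting RNA of a starved culture (Cy5, red, per the labels) against RNA of the same strain at 0 h (Cy3, green). Cells grew in acetate medium (TAP) and were starved in the same medium without sulfur. The arrays analysed here are from 24, 48, 72 and 96 h for the wild types cc3491, 4A+ and cc125 and from 24, 48 and 96 h for npq4. The strain npq4 is an insertional mutant that lacks both LHCSR3 genes, and 4A+ is its control strain. Each array carried a pool of biological samples, and a strain's arrays are different hours set against the same 0 h reference. The spread of the 0 h culture is therefore not in the ratio, and p-values measure only the spread between arrays, which may be technical. Each strain was hybridised on a slide of its own, so strain and slide cannot be told apart.

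Sulfur is needed for cysteine, methionine, glutathione and the sulfolipid of the thylakoid membrane. When sulfate runs out, this alga is known to make more sulfate transporters and assimilation enzymes, to free sulfate outside the cell with arylsulfatases, and to reduce photosynthesis. The raised models described here leave out the best known genes of that response.

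The arrays differed before any gene was considered. Between 16775 and 29190 probes were well above background in green and between 8797 and 26685 in red, with the lowest red counts on the 4A+ arrays, at 8797 to 12496. LHCSR3, the gene disrupted in npq4, was not well above background on any npq4 array, whereas its ratio lay between 0.85 and 3.88 on the cc3491 arrays and between 0.91 and 3.29 on the 4A+ arrays. The arrays labelled cc125 ran against the others, with r = -0.54 between the means of cc125 and cc3491 across 7564 models, which share arrays and are not independent replicates. Their direction is therefore not settled, and values from them are given as labelled. Turning the sign swaps lower and higher in every count on them. The cc125 48 h array also stood apart from the other cc125 arrays, with r between 0.33 and 0.45 with them, whereas the other cc125 arrays reached 0.87 with each other.

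The raised models had median ratios between 2.17 and 2.36 on the 4 cc3491 arrays, between 2.79 and 3.23 on the 4A+ arrays and between 2.21 and 2.69 on the npq4 arrays. Over all models measured on an array the medians lay between -0.67 and 0.10 on these 11 arrays. The 75th percentile of the raised models did not pass 4.04 on any of the 11 arrays, so most of them lay well below the few leading models. Of the 149, 37 had a ratio of at least 2 on every one of the 11 arrays and 7 a ratio of at least 3. The highest single value was 7.26. When the ratios were instead built from the raw spot signals, with normexp background correction and loess, the same rule gave 78 models, 67 of them among the 149.

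**Figure D1:**
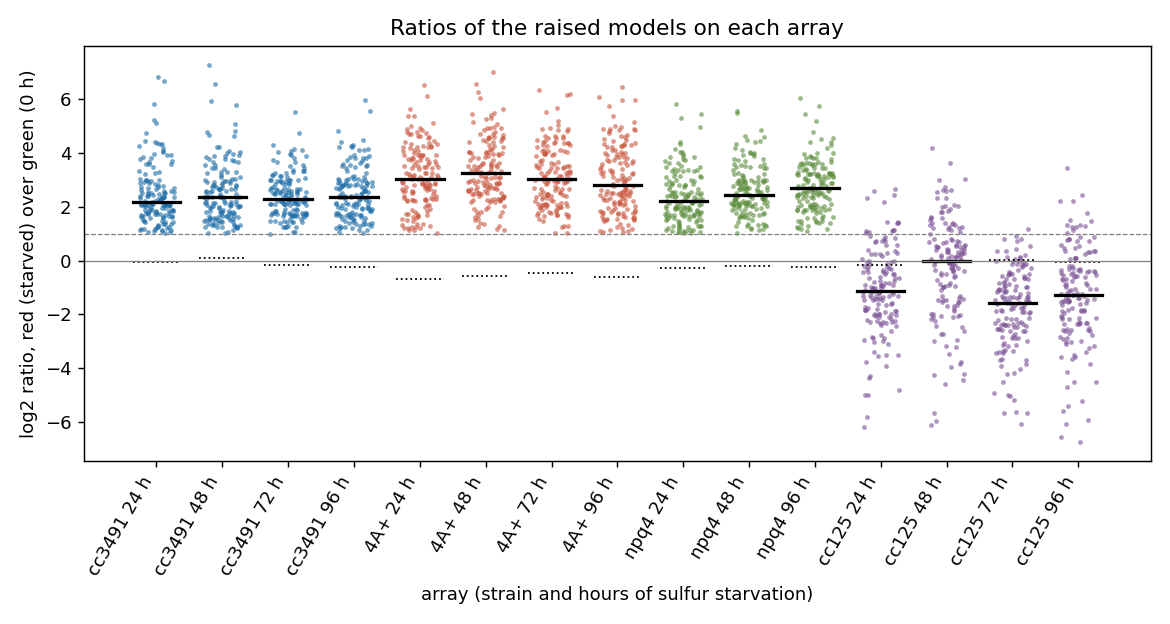
Log2 ratio of red over green signal for each of the 149 raised models (points) on each of the 15 arrays, coloured by strain, with the median of the raised models (solid bar) and of all measured models (dotted bar). The dashed line marks the threshold of 1 used for selection on the first 11 arrays, where the medians lie between 2.17 and 3.23. On the cc125 arrays the medians lie between -1.57 and 0.00.

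A threshold on every array has an edge. The raised models closest to it were 188107, 162535 and 135128, with lowest ratios of 1.00, 1.01 and 1.01. Just outside were 164272 at 1.00 (0.9985 before rounding), 163238 at 0.996 and 131867 at 0.991, each at or above 1 on 10 of the 11 arrays. The medians of these 6 models over the 11 arrays overlapped, at 1.97 to 2.60 inside and 1.204 to 2.78 outside.

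Most raised models were measured with more than 1 probe. On all 11 arrays, 44 had 3 usable probes, 77 had 2 and 28 had 1. Taken probe by probe, 91 models had 2 or more probes that each reached 1 on all 11 arrays, 52 had 1 such probe and 6 had none, since their mean passed while no single probe did on every array. These 6 were 2180, 187137, 152270, 131648, 183574 and 196074.

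The highest ratios belonged to model 184282, which carries no name in the tables used here. Its ratio was 6.80, 7.26, 5.49 and 5.95 in cc3491 at 24, 48, 72 and 96 h, 6.52, 7.01, 6.16 and 6.42 in 4A+, and 5.42, 5.53 and 6.04 in npq4. The cc3491 values overlapped those of both other strains, whereas every npq4 value lay below every 4A+ value. The lowest of the 11 values was still higher than the median of any other raised model but HAP2.

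HAP2 (model 143696), described as a vanadium haloperoxidase, an enzyme class that oxidises halides with hydrogen peroxide, came next. It read 6.64, 6.57, 4.74 and 5.54 in cc3491, 6.09, 6.26, 5.66 and 5.97 in 4A+ and 5.82, 5.46 and 5.73 in npq4. HAP1 (168785), a putative haloperoxidase, read 4.41, 4.62, 2.86 and 3.85 in cc3491, 3.59, 4.02, 3.31 and 3.72 in 4A+ and 2.94, 3.06 and 3.17 in npq4. HAP2 was higher than HAP1 on all 11 arrays, by 1.69 to 2.88 on the log2 scale as a difference of ratios. HAP2 had a saturated red spot on all 4 cc3491 arrays, on 1 4A+ array and on 1 npq4 array, and HAP1 on none, so those HAP2 ratios and their distance from HAP1 may be understated. HAP1 was lowest at 72 h within cc3491 and highest at 48 h. In the RefSeq gene order, HAP1 and HAP2 lie next to each other on chromosome 13.

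AOT2 (206109), an amino acid transporter, was separated by strain. Its ratio was 3.56, 3.77, 3.30 and 3.55 in cc3491 and 4.99, 5.29, 4.79 and 4.85 in 4A+, with npq4 between them at 3.94, 4.11 and 4.397. CPO1 (155961) was highest in npq4, at 4.94, 4.84 and 5.16, against 3.28 to 4.06 in cc3491 and 4.04 to 4.33 in 4A+. No array of another strain reached the npq4 values of CPO1.

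MSRA2 (196103) encodes a peptide methionine sulfoxide reductase, which repairs oxidised methionine in proteins. It read 5.80, 5.90, 4.10 and 4.82 in cc3491, 4.25, 4.92, 4.37 and 4.32 in 4A+ and 2.96, 3.75 and 4.29 in npq4. The early cc3491 arrays were the highest and npq4 at 24 h the lowest. Its neighbour in the RefSeq order on chromosome 6 is FA1 (187224), named for flagellar autotomy, the shedding of cilia. FA1 was also raised on all 11 arrays, with 1.22 to 2.50 in 4A+ below 2.94 to 4.43 in cc3491 and 3.58 to 3.88 in npq4.

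Model 205695 read 3.64 to 4.47 in cc3491, 4.90 to 5.41 in 4A+ and 3.78 to 4.60 in npq4. Model 192854 was the most uneven of the 12 leading models, from 3.33 in npq4 at 24 h to 6.53 in 4A+ at 48 h. Neither model has a described function here.

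A serine carboxypeptidase (189662), an enzyme that removes amino acids from the end of a protein, read between 2.99 and 4.70. A MutT/NUDIX hydrolase (205777), of a family that splits nucleoside diphosphate compounds, read between 2.95 and 4.76. The remaining leading models, 192637 and 206219, lay between 3.23 and 5.17 and between 2.99 and 5.15. For 192637 the green signal was not well above background on any cc3491 or 4A+ array. Only a bound is read there, of at least 15.5-fold in cc3491 and at least 7.33-fold in 4A+. The same held in 4A+ for 206219 (at least 12.1-fold), CGL42 (at least 10.8-fold) and NAR2 (at least 13.9-fold). The reference for each bound is the probe's own green signal or, if higher, the array's lowest green signal well above background. Each bound is an average over the strain's arrays on the log scale.

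**Figure D2:**
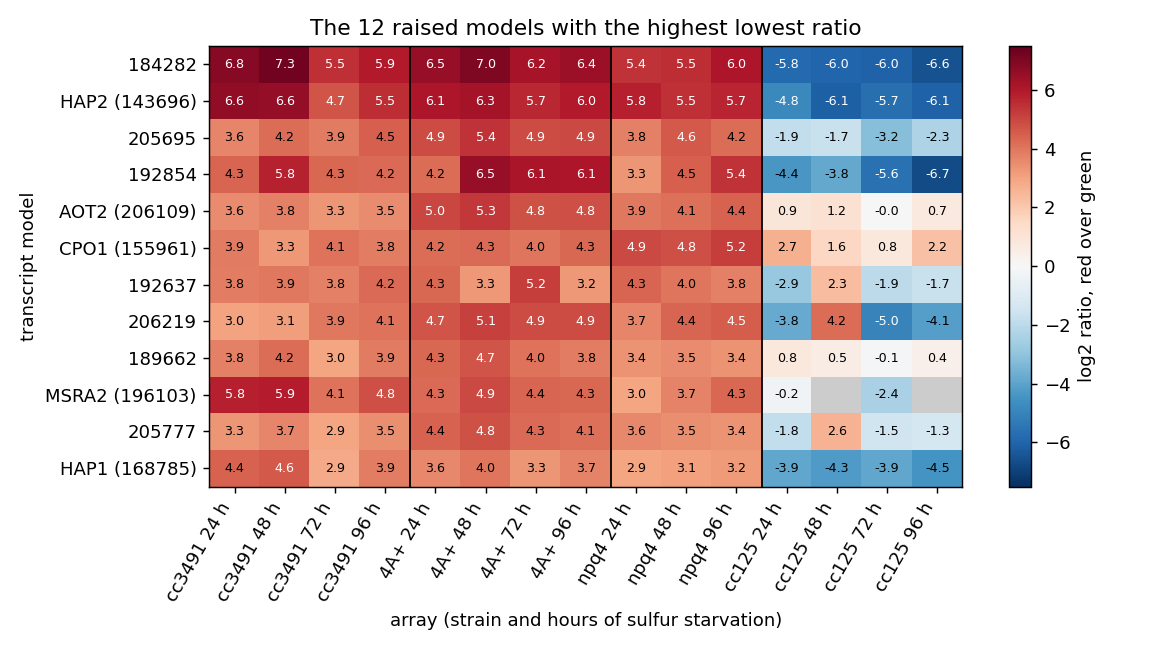
Log2 ratio of red over green signal of the 12 raised models with the highest lowest ratio over the 11 arrays of cc3491, 4A+ and npq4 (rows), on all 15 arrays (columns, by strain and hours of starvation). Grey marks arrays without a usable probe. Model 184282 and HAP2 have the highest medians over the 11 arrays, 6.16 and 5.82, and on the cc125 arrays as labelled both lie between -6.55 and -4.81.

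Names or descriptions were available for a minority of these models. Of the 149, 41 had a symbol and 65 a description, some of them only "predicted protein", and 84 had neither. The names come from tables of genes that the study picked on the arrays of its starvation experiments, these among them, so counts of named groups are not independent of the selection. Of 537 models named or described in those tables and measured on all 11 arrays, 65 (12.1%) were raised models. Over 16 gene lists, 24 raised models fell into at least 1. The lists are short, and no list was tested.

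Sulfur and thiol metabolism held the largest number. Of its 28 named models measured on all 11 arrays, 6 were raised models, 4 more had been left out by name and 2 were at -1 or lower on all 11 arrays. The median ratio of the 6 was 3.01. Besides MSRA2, these were 2 models named OASTL4, a cysteine synthase that joins sulfide to O-acetylserine, and GSH2, NTR2 and SQD1. OASTL4 model 189320 read 2.67 to 3.96 in cc3491, 3.34 to 4.53 in 4A+ and 2.32 to 3.097 in npq4. OASTL4 model 205991 read 3.12 to 4.16, 3.38 to 4.61 and 1.64 to 3.21 in the same strains. The OASTL4 models differed by no more than 0.81 on any of the 11 arrays, and whether their probes tell the genes apart was not tested. They lie on chromosomes 16 and 7.

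GSH2 (189020), glutathione synthetase, which completes glutathione, read 2.07, 2.27, 2.84 and 3.47 in cc3491, 1.72, 2.39, 1.97 and 2.55 in 4A+ and 2.74, 2.73 and 2.43 in npq4. NTR2 (196120), which passes electrons from NADPH to thioredoxin, read between 2.10 and 3.55. SQD1 (27658), which makes the sulfur-carrying sugar of sulfolipid, had the lowest median of all raised models, 1.36, and ranged from 1.06 to 2.57. SABC (134449), described as CysA-like, the ATP-binding subunit of a sulfate transporter, was matched by none of the lists and read 1.43 to 1.84 in cc3491, 2.28 to 3.98 in 4A+ and 1.64 to 2.80 in npq4. SBD1 (182845), a selenium binding protein, read between 1.95 and 5.05.

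Redox and oxidative stress held 4 of 12 named models, namely HAP1, HAP2, NTR2 and an FAD-dependent oxidoreductase (205749) whose median was 2.87. Proteolysis and autophagy held 3 of 12, the serine carboxypeptidase, the peptidase subunit of the mitochondrial protease hslUV (56993, median 2.21) and UBC3, a ubiquitin-conjugating enzyme (135149, median 2.05). UBC3 read 2.09 to 4.12 in cc3491 and 1.08 to 1.98 in 4A+, so these strains did not overlap, though narrowly. Only 1 of its 3 probes was usable on all 11 arrays, so the probes averaged may differ between arrays.

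NAR2 (184660), an accessory protein of nitrate uptake, was the single raised model among 10 named nitrogen assimilation models. It read 2.05, 1.77, 3.93 and 4.30 in cc3491, 5.64, 6.03, 4.20 and 3.71 in 4A+ and 5.27, 4.42 and 3.87 in npq4. In cc3491 it was lower at 24 and 48 h than at 72 and 96 h. Only 1 of its 3 probes was usable on all 11 arrays, so the probes averaged may differ between these hours. Its green signal was not well above background on any 4A+ array. The 4A+ ratios are therefore uncertain, and only the bound of at least 13.9-fold is read from them. AOT2 and AST2, an aspartate aminotransferase (146923, 1.01 to 2.37), were 2 of 5 models for amino acid uptake and breakdown. OTA1 (195386), ornithine transaminase, read between 1.08 and 3.02, and AGK1 (78991), described as like acetylglutamate kinase, an enzyme of arginine synthesis, between 2.004 and 3.97.

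In carbon and lipid metabolism, MEX1 (205898), described as like the exporter that carries maltose out of the chloroplast, was among the steadiest raised models. It read 2.63 to 3.00 in cc3491, 3.20 to 3.37 in 4A+ and 2.45 to 2.98 in npq4, a range of 0.918 over 11 arrays. PFK2 (196430), of the phosphofructokinase family, read 1.32 to 2.17 in cc3491 and 2.40 to 3.56 in 4A+. A predicted lipase (191373) had a median of 3.12. VTE4 (129990), which methylates gamma-tocopherol to alpha-tocopherol, the lipid-soluble antioxidant, read between 1.42 and 2.99.

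The list for protein kinases and phosphatases held 4 raised models of 14, each with a kinase name. Of these, ALK2 (145741), an Aurora-like protein kinase, is a signalling kinase. ALK2 read 2.12 to 3.36 in cc3491, 4.08 to 4.99 in 4A+ and 2.65 to 3.52 in npq4. The others were AGK1, PFK2 and RFK2, riboflavin kinase (189830, 1.26 to 2.93), which act on small molecules.

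Light harvesting and photosynthesis held 2 raised models of 42, with 2 more left out by name. The raised models were PSBP2, a PsbP-like protein (205882, median 3.01), and LCI36, a low-CO2-inducible membrane protein (182275, median 1.89). In that list 9 models were at -1 or lower on all 11 arrays. Among 33 named cilia models, FA1 alone was raised and 16 were at -1 or lower on all 11 arrays. None of the 4 models that the search terms for transcription factors matched was raised, nor any of 8 matched as chaperones, and CGLD10, described as a transcriptional regulator-like protein, lay outside those terms. The search terms of the lists for starch and sugar metabolism and for cyclic nucleotides matched no measured model. Those terms did not cover the sugar genes MEX1 and PFK2 or a trehalase-like protein (195672), which were raised. In the other lists a single model was raised. SQD1 was raised of 9 for phosphate acclimation, where 1 was at -1 or lower on all 11 arrays, and the lipase of 14 for lipids, where none was. ELG11 was raised of 18 for the cell wall, with 2 more left out by name and 3 at -1 or lower. AOT2 was raised of 24 for membrane transport, with 2 more left out by name and 4 at -1 or lower, and NAR2, MEX1 and SABC lay outside the terms of that list.

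Among the remaining named models, VPS33 (195470), of a protein family that guides vesicle fusion, read 2.06 to 2.58 in cc3491 and 4.39 to 5.01 in 4A+. ELG11 (147553), an exostosin-like glycosyltransferase, read between 2.33 and 3.51. Model 152123, with a median of 3.85, is named CAM2.a in some entries and CAM2.b in others and is described as like calmodulin, a calcium sensor, or as a predicted protein. Model 196235, with a median of 2.83, is named CAM2.b and described only as a predicted protein. In cc3491 both were at or below 1.67 at 24 and 48 h and at or above 2.47 at 72 and 96 h. The names MTA4a (7933) and MTA4 (185335) stood for models that differed by no more than 0.449 on any of the 11 arrays. Whether the probes of these models tell the genes apart was not tested. Both models were highest at 48 h in cc3491, at 3.43 and 3.16.

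Of the others, PYR4 (152239) had a median of 2.45, TEF13 (185990) of 3.48, CGL42 (205909) of 4.30, CPLD17 (146838) of 2.41 and CGLD10 (142077), described as transcriptional regulator-like, of 2.68. The medians were 2.03 for RBL5 (206029), a rhomboid-like membrane protease, 2.34 for THY28 (185829), 2.33 for STR1 (157870) and 2.18 for COX16 (195717), a cytochrome c oxidase assembly factor. Model 182461, with a median of 3.55, is named GGH1 in some entries and GLD2 in others, so its identity is uncertain. HTB10 (112775), a histone H2B, ranged from 1.68 to 5.35, but the study's probe annotation marks all of its probes as matching several transcripts, so its value may include other transcripts.

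Of the 149, 134 matched a RefSeq locus, on 16 chromosomes. Among 2622 pairs of adjacent loci that were both measured on the 11 arrays, 3 pairs (0.114%) were both raised. That share is of pairs, and is not comparable with the 1.95% that the raised models made up of single measured models. The pairs were HAP1 with HAP2, FA1 with MSRA2 and 162535 with 157189 on chromosome 1. In 2 more pairs, 190604 with 147598 on chromosome 3 and LCI36 with 187040 on chromosome 6, a single gene lay between them.

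The level of the raised models in each channel was read as their median log2 signal above the median of all probes of that channel. On the 11 arrays the green level lay between 2.003 and 3.58 and the red level between 5.15 and 6.47, and the reference here includes probes not above background, whereas each raised model had to have a probe above background on every array. Only the change between channels and arrays is therefore read from these levels. On the cc125 arrays the green level was 4.07 to 5.90 and the red level 3.12 to 4.04. The channels thus changed places on 3 of the cc125 arrays and met at 48 h.

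**Figure D3:**
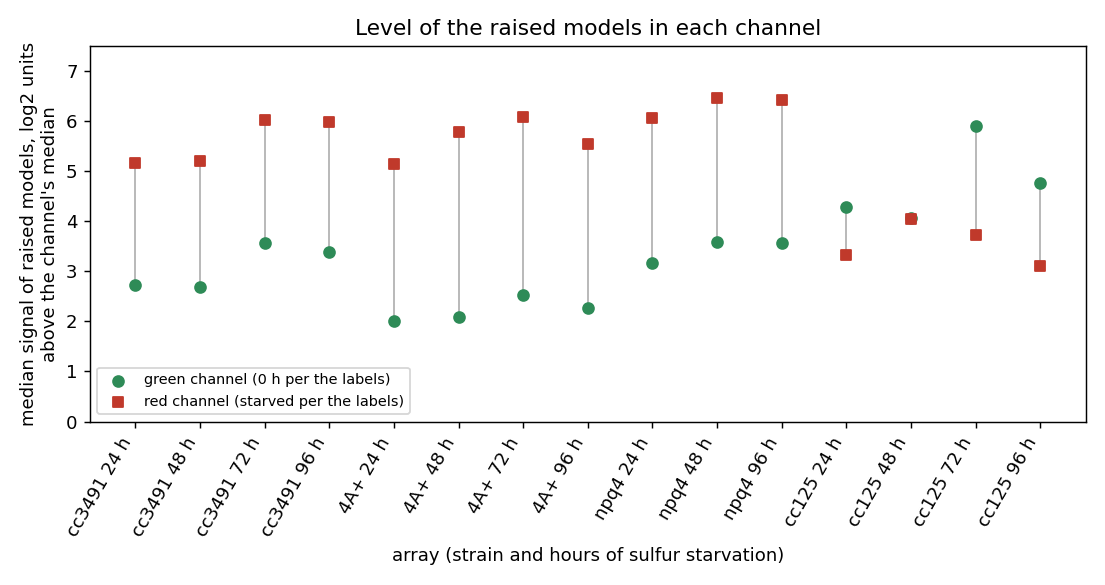
Median log2 signal of the raised models' probes above the median of all probes in the same channel, for green (circles, 0 h per the labels) and red (squares, starved per the labels), on each of 15 arrays. Red lies above green on the 11 arrays of cc3491, 4A+ and npq4. On the cc125 arrays green lies between 4.07 and 5.90 and red between 3.12 and 4.04.

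The cc125 ratios were not used for the selection, and their means were tested. The spread between arrays in that test was estimated over all 15 arrays, however, 11 of which chose the raised models, so its p-values are not fully independent of the rule. As labelled, their mean ratio over the cc125 arrays had a median of -1.01, against 0.16 over all 7880 models in the test. By limma with Holm adjustment and at least a 2-fold change, 24 of 148 raised models (16.2%) were lower, where 1.47% of all models were lower. The other 2 called were higher, where 7.06% of all models were. By Benjamini-Hochberg 71 were lower (8.82% of all models) and 8 higher (23%). With the sign turned these counts change places, to 24 higher and 2 lower. Without the cc125 48 h array the same test called 52 lower (2.44% of all models) and 1 higher (9.24%). With only the 4 cc125 arrays in the fit, which took no spread from the selected arrays, 6 were lower (0.105% of all models) and none higher (0.137%).

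Read array by array, 62 raised models were below 0 on all 4 cc125 arrays and 10 above 0, where 24.6% and 24.5% of all models measured on the 4 arrays were. At -1 or lower on all 4 were 27 raised models (2.16% of all models), and at 1 or higher on all 4 was none (7.01% of all models). Without the 48 h array 108 raised models were below 0 on the other 3 (37% of all models) and 68 at -1 or lower (6.37%).

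Model 184282 had the lowest mean of the raised models on these arrays, with -5.80, -5.96, -6.05 and -6.55 at 24, 48, 72 and 96 h, a mean of -6.09 ± 0.32 (SD, n = 4 arrays, limma Holm-adjusted p = 3.4e-10). HAP2 read -4.81, -6.12, -5.67 and -6.07, a mean of -5.67 ± 0.61 (SD, n = 4, limma Holm-adjusted p = 5.1e-09). HAP1 read -3.92, -4.25, -3.91 and -4.49 (limma Holm-adjusted p = 6.8e-08). On the cc125 arrays as labelled, all 4 values of each of these 3 models thus lay far below 0, and the 48 h array did not stand apart.

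Model 195092 was different in size. It read only 1.26 to 1.77 in cc3491, 1.70 to 2.52 in npq4 and 3.62 to 4.24 in 4A+, but -6.16, -5.65, -5.65 and -5.93 on the cc125 arrays (mean -5.85 ± 0.25 SD, n = 4, limma Holm-adjusted p = 9.6e-12). Model 192854 read -4.37, -3.85, -5.62 and -6.72. All 4 raised models of the redox list were among those called lower, HAP1, HAP2, NTR2 (-2.39) and the FAD-dependent oxidoreductase (-2.99). GSH2 (-0.37) and VTE4 (-0.53) lay outside the terms of that list and were not called. In the other lists, 1 raised model was called lower in sulfur and thiol metabolism (NTR2 again, of 6, with MSRA2 not in the test). So was 1 in kinases and phosphatases (ALK2, of 4) and 1 in photosynthesis (LCI36, of 2), with none in the rest. No list was tested for a difference from the others. The mean was -3.52 for ALK2 and -2.20 for LCI36, and further named models called lower were TEF13 (-3.93), HTB10 (-3.62) and SBD1 (-3.01). Models 148875 and 206222, both called lower, read much alike, at 4.38 to 4.85 and 4.39 to 4.71 in 4A+. So did 196443 and 140618, also called lower, at 4.60 to 5.48 and 4.55 to 5.45 in 4A+. Whether their probes tell separate transcripts apart was not tested, so some raised models may stand for the same transcript.

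The 2 models called higher were CPO1, with 2.66, 1.58, 0.81 and 2.20 (mean 1.81 ± 0.80 SD, n = 4, limma Holm-adjusted p = 0.011), and 187738, with 1.42, 2.53, 0.91 and 1.46 (mean 1.58 ± 0.68 SD, n = 4, limma Holm-adjusted p = 0.020). No raised model was called higher without cc125 24 h (4.35% of all models) or without cc125 96 h (3.67%), and 4 were without cc125 72 h (4.82%). After normexp and loess none was called higher (4% of all models) and 19 lower (1.08%). AOT2 (0.92, 1.15, -0.01 and 0.71) and the serine carboxypeptidase (0.79, 0.54, -0.15 and 0.37) were not called. Among the leading models that the 48 h array set apart, 206219 read 4.19 there and -4.99 to -3.77 on the others, 205777 read 2.58 against -1.82 to -1.33, and 192637 read 2.33 against -2.86 to -1.65. MSRA2 had values on only 2 cc125 arrays, -0.25 at 24 h and -2.43 at 72 h, and was left out of the test.

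**Figure D4:**
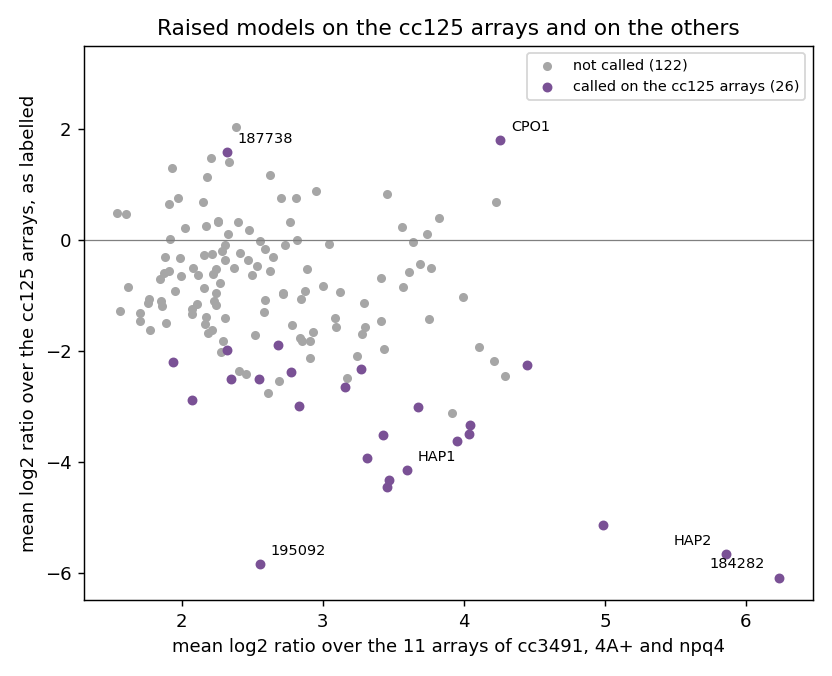
Mean log2 ratio over the 4 cc125 arrays as labelled (vertical) against the mean over the 11 arrays of cc3491, 4A+ and npq4 (horizontal) for 148 raised models. Purple marks the 26 models called on the cc125 arrays, 24 of them below 0 and 2 above, and grey those not called.

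Across these 148 models the mean over the 11 arrays and the mean over the cc125 arrays had r = -0.45, given as a description only, because models share arrays and the horizontal values were selected.

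Differences between the 3 strains rest on the same 11 ratios that chose the raised models. A model that stayed low in any of these strains could not be chosen, so the counts below describe the raised models, and nothing is read from setting them against the shares of all models. In 4A+ minus cc3491 the raised models had a median difference of 0.65 on the log2 scale, against -0.31 over all models. With each array centred on its probes above background these medians were 1.11 and 0.16, so that over all models changed sign. Limma with Holm adjustment and at least a 2-fold change called 8 of 148 (5.41%) higher in 4A+, where 1.14% of all models were, and none lower (2.56% of all models). At an unadjusted p under 0.05, 59 were higher (14.6% of all models) and 8 lower (28.9%), and by Benjamini-Hochberg 37 were higher (9.89% of all models) and 5 lower (19.7%). Every 4A+ array was above every cc3491 array for 55 of the 149 (10.3% of all models measured on these arrays) and below for 5 (22.9%).

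Model 194844 had the largest such difference, 3.31 (SE 0.44), with 5.11, 4.71, 6.33 and 5.96 in 4A+ against 2.41, 1.82, 2.26 and 2.39 in cc3491. Model 205608 read 4.26, 4.83, 4.61 and 4.30 against 1.12, 1.42, 2.17 and 2.39, a difference of 2.72 (SE 0.41). Model 158911 followed with 2.54 (SE 0.38) and 195092 with 2.43 (SE 0.29). The others were VPS33 (2.34), the hslUV peptidase (2.35), 183469 (2.30) and 159714 (2.14). In all 8 every 4A+ value lay above every cc3491 value. For 194844 and VPS33 only 1 of 3 probes was usable on all 11 arrays, and for 205608 and 158911 only 2. The probes averaged for these models thus changed between some of the 11 arrays. Model 183469 had a saturated red spot on all 4 cc3491 arrays and 158911 on 2, with none on the 4A+ arrays, so their cc3491 ratios may be understated and their differences overstated.

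This comparison depended on the processing. After normexp background correction and loess, the median difference of the raised models turned to -0.52, 2 were called higher and 2 lower, and 194844 stood at -0.17. Of the alternatives run, 194844 lost its call in 4 of 22 and turned sign in 1, 205608 lost its call in 12 of 24, 158911 in 15 of 24 and 195092 in 1 of 24. Leaving out any single cc3491 or 4A+ array left 3 or 4 calls, leaving out npq4 48 h or cc125 96 h left 5, and 11 were called without cc125 48 h. The 4A+ arrays also had the lowest red detection, 8797 to 12496 probes against 21041 to 26383 in cc3491, and its part in the result was not tested.

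**Figure D5:**
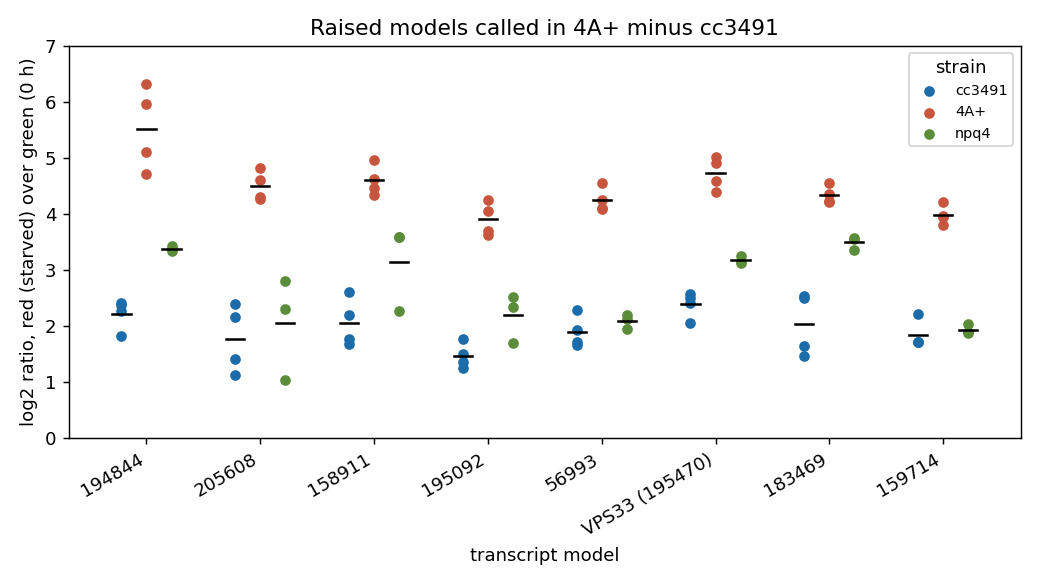
Log2 ratio of red over green signal on each array (points) and mean per strain (bars) for the 8 raised models called in 4A+ minus cc3491. All 4A+ values (3.62 to 6.33) lie above the cc3491 values of the same model, and npq4 lies lower than 4A+ for all 8.

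In npq4 minus 4A+, the comparison of the mutant with its control, the median difference of the raised models was -0.60, against 0.10 over all models. With each array centred on its probes above background these medians were -0.92 and -0.22, so the median over all models changed sign. Limma with Holm adjustment and at least a 2-fold change called 0 of 148, where 1.93% of all models were higher and 0.444% lower. At an unadjusted p under 0.05, 42 were lower (15.8% of all models) and 5 higher (19.6%), and by Benjamini-Hochberg 24 were lower (9.58%) and 2 higher (13%). Every npq4 array was below every 4A+ array for 52 of the 149 (16.4% of all models measured on these arrays) and above for 8 (19.7%). In the fit of the 11 arrays without cc125, 3 raised models were called lower in npq4, 148875 (-2.59, SE 0.35), 159714 (-2.05) and the hslUV peptidase (-2.16), where 0.704% of all models in that fit were lower and 2.3% higher. Without only the cc125 48 h array, 3 were also called. After normexp and loess the median difference was 0.25, of the opposite sign.

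For npq4 minus cc3491 the median difference was 0.13, against -0.16 over all models (0.27 and -0.02 centred on probes above background). Again 0 of 148 were called by limma with Holm adjustment and at least a 2-fold change (0.152% of all models higher, 0.266% lower). At an unadjusted p under 0.05, 18 were higher (8.15%) and 7 lower (15.6%), and by Benjamini-Hochberg 2 were higher (2.28%) and 1 lower (4.68%). Every npq4 array was above every cc3491 array for 24 of the 149 (10.4% of all models measured on these arrays) and below for 10 (16%). After normexp and loess the median turned to -0.25.

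A line with 1 slope per 24 h and a level for each strain was fitted to the 11 arrays as a description of the time course. The rule required a ratio of at least 1 at every hour, which removes models that fell back or began low, so the counts say nothing of how the raised models compare with others. The median slope of the raised models was 0.01 and the range -0.34 to 0.66. Limma with Holm adjustment called 0 of 149 in either direction (0.0131% of all models rising, 0% falling), as did Benjamini-Hochberg (0.0261% and 0%). At an unadjusted p under 0.05, 12 were rising (6.45% of all models) and 4 falling (4.73%). A raised model spanned a median of 2.08 between its lowest and highest of the 11 arrays, from 0.716 for 182706 to 4.51 for 194844. The median SD between the time points of a strain was 0.44 in cc3491, 0.41 in 4A+ and 0.31 in npq4.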

How the data were processed

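Transcript levels were measured on 15 oligonucleotide arrays with 2 colours. The authors deposited scanner output from Agilent Feature Extraction 10.7.3.1, in which the intensity of each spot is given as a median pixel value and as a processed signal after background subtraction and dye normalization. The deposited marks for probes well above background, saturation and outliers were also used. The deposited table of log10 ratios was not used here. A transcript model has up to 3 probes, and array precision is limited by the number of arrays.

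Each ratio is log2 of red over green processed signal minus the array median. A model's value is the mean over its probes well above background in either channel. The study left probes taken from an earlier array out of its own analysis, citing lower ratios and possible cross hybridization. Here no probe was left out of the main values for its origin. Outlier-marked and saturated spots were kept, and 22 of the 149 models had a saturated spot on a cc3491 array, which can understate their ratio. One limma (3.58.1, R 4.3.3) fit with 1 coefficient per strain covered 7880 models with at least 3 values in each strain, and 148 raised models entered it. A model was called at a Holm-adjusted p below 0.05 and at least a 2-fold change, after the study's methods, except that the slope over time had no fold limit. Groups come from the labels. The npq4 72 h array is not analysed here.

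The fit was run on simulated ratios with independent noise and planted changes, to see whether it recovered them. The simulation had no shared 0 h reference and no slide effect, so it says nothing of those limits of the real arrays. The members and gene lists were chosen with earlier results of these data known. Named are the 12 models with the highest lowest ratio, those with a symbol, up to 4 called each way per test, and the 3 on each side of the threshold. Other models were chosen after their values were seen. They are named for a description, a neighbour, their probes, their spread, likeness to another model or a further called change. Names come from the study's tables, and loci from RefSeq assembly Chlamydomonas_reinhardtii_v5.5, through the old model number. Entries whose name was the number of another model were dropped. Columns of the study's own comparisons were not used.

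Alternatives were normexp (offset 50) with loess, loess alone, probes 1 and 2, probes above background in both channels, fixed probes, other thresholds, Benjamini-Hochberg, no fold limit, fewer arrays and time point as a block. Centring on probes above background, leaving out outlier-marked spots and fitting the 11 arrays alone were added after seeing the data.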

Additional observations from a re-analysis of the deposited data

Results flagged for a closer look

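An array far from the other arrays of its strain was found in 4 of 53 groups of 4 arrays examined, where chance gives about 1 in 20. On cc125 arrays as labelled, model 206219 read 4.19 at 48 h and -4.99 to -3.77 at the other times, and model 205777 read 2.58 at 48 h and -1.82 to -1.33 at the other times. Model 205695 read 5.41 in 4A+ at 48 h against 4.90 to 4.95, and model 192854 read 5.78 in cc3491 at 48 h against 4.24 to 4.35. Model 192854 had a saturated spot on 3 of the cc3491 arrays, so its ratios there may be understated. All 4 of these distant values were 48 h arrays, on 3 strains. Models 206219 and 205777 share the cc125 48 h array, so the groups are not independent. Nothing is therefore read from the count or from the shared hour.

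In 4A+ minus cc3491 the strain means differed for model 194844 (3.31 on the log2 scale), model 205608 (2.72), model 158911 (2.54) and model 195092 (2.43), on arrays that also chose these models. The first turned to -0.17 after normexp and loess, and the call was lost in 12 of 24 alternatives for 205608, 15 of 24 for 158911 and 1 of 24 for 195092. As labelled, 62 raised models were below 0 on all 4 cc125 arrays, where 24.6% of all models measured on them were. That they were at 1 or higher on the 11 other arrays follows from the rule. The difference between the cc125 arrays and the others was not tested, and the direction of the cc125 arrays is not settled.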

How the results depend on the processing

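The number of raised models was 149, and 78 after normexp and loess (67 of them shared), 335 at a threshold of 0.5 and 37 at a threshold of 2. Leaving out 1 array gave 152 to 170, since fewer arrays had to pass. Calls on the cc125 arrays, 26, were 79 by Benjamini-Hochberg and 6 with only the 4 cc125 arrays, and 23 to 53 with 1 array left out, the highest without cc125 48 h. In npq4 minus 4A+, the count of 0 became 26 by Benjamini-Hochberg, 1 with loess on the processed signals, 2 with probes above background in both channels, 1 with centring on probes above background and 3 with only the 11 arrays. Leaving out 1 array gave 0 to 3, with 1 call without cc125 72 h or 96 h. In npq4 minus cc3491 it became 3 by Benjamini-Hochberg and stayed at 0 to 0 with 1 array left out. In 4A+ minus cc3491 the 8 calls were 42 by Benjamini-Hochberg, 4 after normexp and loess (1 shared), 5 with probes 1 and 2, 5 with a fixed set of probes and 3 to 11 with 1 array left out. The member 194844 turned to -0.17 there after normexp and loess, and the cause was not tested. The slope over time kept a count of 0 under its 8 other settings and 11 arrays left out in turn.

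With time point as a replicate block the counts were 0 in npq4 minus 4A+, 0 in npq4 minus cc3491 and 3 in 4A+ minus cc3491. Time points did not pair the arrays of different strains, since 3 of 21 pairs of the same hour had deviations correlated above 0.1 (range -0.25 to 0.19) and 8 of 42 array and strain combinations correlated best with their own hour.

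Of 57 named raised models, 31 moved by more than the SD of their 11 ratios after normexp and loess, none fell below 0 and 27 stayed at 1 or higher on all 11 arrays. In the other settings at most 5 moved, but not all 57 could be compared in each. With probes 1 and 2 only, 53 were compared and 49 stayed at 1 or higher. With probes above background in both channels, 44 were compared and 43 stayed.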
